A study of Homo sapiens with 8 samples.

Results

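The question was whether an active form of YAP acts on the same genes, and in the same direction, in dividing fibroblasts and in fibroblasts made senescent. It was answered gene by gene with the difference of 2 log2 changes: the change with doxycycline in senescent cells minus the change with doxycycline in proliferating cells. This contrast needs all 4 groups, so 8 of the 8 libraries of the series entered it, and 17155 of the 54628 genes in the count table had enough reads to be tested. A positive difference means that doxycycline moved the gene further up, or less far down, in senescent cells.

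The cells were IMR90, human fibroblasts of the lung that telomerase (hTERT) keeps dividing, grown at low oxygen. Every group carried the pINDUCER20 vector with Flag-tagged YAP5SA, which doxycycline switches on. Proliferating cells were untreated or received 1 ug/ml doxycycline for 11 days. Senescent cells had received 10 ug/ml bleomycin for 24 h and were taken 9 days later, again without or with 1 ug/ml doxycycline for 11 days. As 11 days is longer than 24 h plus 9 days, doxycycline kept until harvest would have begun before bleomycin. Effects on the entry into senescence and on cells already senescent therefore cannot be told apart. A rise or fall in senescent cells below compares treated with untreated senescent libraries, not the same cells over time. Each of the 4 groups had 2 libraries. Cells lacking the transgene were not given doxycycline in any group, so effects of the drug and of YAP5SA cannot be told apart. The labels do not say that the 2 libraries of a group came from separate cultures, so the p-values measure only the spread between these samples.

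YAP is a transcriptional coactivator without DNA-binding domain of its own. It reaches DNA mainly through the TEAD factors, and the Hippo kinases LATS1 and LATS2 hold it in the cytoplasm by phosphorylating it on serines. YAP5SA has alanines in place of those serines and so escapes this control. In fibroblasts YAP is known for driving genes of matrix, adhesion and growth. Senescent fibroblasts have left the cell cycle for good and are known for secreting proteases and cytokines, and for expressing interferon-stimulated genes.

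Totals ran from 33627708 to 39692162 counts per library. Log2 counts of replicate libraries correlated across genes at r = 0.990 to 0.993, those of libraries from different groups at 0.920 to 0.977. Senescent libraries without doxycycline had scaling factors of 0.902 and 0.929 against 1.01 to 1.05 elsewhere. Scaling by total counts alone therefore moved the median difference over all genes from -0.03 to 0.15 on the log2 scale. More genes were detected in senescent cells with doxycycline (25572 and 25198) than in the other 6 libraries (22307 to 23992). All 14 fibroblast markers were expressed well enough to be tested, and their summed level was 27448 and 27266 CPM in proliferating cells, 18965 and 19228 CPM after doxycycline, 26533 and 27520.0 CPM in senescent cells and 12854 and 15307 CPM with doxycycline. Such a sum weighs members of high level most. The median log2 change of these markers with doxycycline was -0.57 in proliferating and -0.39 in senescent cells.

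YAP1 itself, the gene of the switched-on protein (chromosome 11, 102110447 to 102233424), was measured at 198 and 195 CPM in proliferating cells, 190.2 and 238 CPM after doxycycline, 190.3 and 223 CPM in senescent cells and 291 and 287 CPM with doxycycline. The counts are given as CPM, the share of the scaled library total times 1000000, and they sum the endogenous gene and any transgene reads. Levels overlapped between proliferating groups, while both senescent libraries with doxycycline lay above all others. The change was 0.12 (SE 0.10, adjusted p = 0.431) in proliferating cells and 0.48 (SE 0.10, adjusted p = 0.00140) in senescent cells. The difference between states did not pass the threshold of an adjusted p of 0.05 (log2 difference 0.36, SE 0.15, adjusted p = 0.101). It passed with total-count scaling (log2 difference 0.53, adjusted p = 0.0301), with replicate numbers of the titles fitted as a block (log2 difference 0.37, adjusted p = 0.0371), without replicate 2 of the proliferating libraries with doxycycline (log2 difference 0.52, adjusted p = 0.00892) and without senescent replicate 2 (log2 difference 0.47, adjusted p = 0.0467). The part of a higher YAP1 level in the differences described next was not tested.

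Promoter stretches of 7 genes are shown first. They were kept from a longer set of genes because they hold short motifs by which TEAD, interferon-responsive, AP-1 and amino acid response factors are known to bind. They come from RefSeq promoter windows on GRCh38.p14, which run from 250 bases before to 50 bases after a gene's start. Each is written 5′ to 3′ on the gene's own strand, and capitals mark the motif letters, found on either strand. The same search gave no stretch for PCK2, PSAT1, PHGDH, DDIT4 and VLDLR (amino acid response), CCL2 (NF-kappaB), IFIT2 (interferon response) or MMP1 (AP-1). Those genes had no window or no match before the start. ANKRD1 and CCN2 are TEAD targets that the states treated in contrasting ways, IFIT1, ISG15 and OAS3 are interferon-stimulated, SERPINB2 and CHAC1 moved in opposite directions.
ANKRD1, CATTCC on the other strand, chr10:90921178-90921247, minus strand: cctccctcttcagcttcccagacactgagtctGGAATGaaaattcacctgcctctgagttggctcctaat
CCN2, CATTCC on the other strand, chr6:131951430-131951499, minus strand: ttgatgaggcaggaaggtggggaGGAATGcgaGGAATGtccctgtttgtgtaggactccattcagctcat
IFIT1, TTTCNNTTT, chr10:89392489-89392558, plus strand: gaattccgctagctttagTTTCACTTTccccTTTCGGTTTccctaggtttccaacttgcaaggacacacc
ISG15, TTTCNNTTT on the other strand, chr1:1013360-1013429, plus strand: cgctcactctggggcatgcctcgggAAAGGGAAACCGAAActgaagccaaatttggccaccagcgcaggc
OAS3, TTTCNNTTT on the other strand, chr12:112938404-112938473, plus strand: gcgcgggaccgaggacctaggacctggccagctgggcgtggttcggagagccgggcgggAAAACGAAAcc
SERPINB2, TGANTCA, chr18:63887571-63887640, plus strand: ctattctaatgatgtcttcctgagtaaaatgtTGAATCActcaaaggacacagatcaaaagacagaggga
CHAC1, TGATGNAA on the other strand, chr15:40953231-40953300, plus strand: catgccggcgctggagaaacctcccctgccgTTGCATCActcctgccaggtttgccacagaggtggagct

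A promoter window was found for 12072 of the tested genes, out of 27305 windows of 300 bases in the table. The TEAD letters CATTCC stood in 14.0% of all promoters, in 11.5% of those of tested genes, and in 20.4% of those of genes raised in both states but less in senescent cells (21 of 103). The share was nearly as high, 19.0%, among genes lowered in proliferating cells only (22 of 116), 15.7% among genes raised more in senescent cells, and at its lowest, 5.56%, among genes that fell in proliferating and rose in senescent cells. The interferon letters TTTCNNTTT stood in 10.6% of all promoters and 7.50% of those of tested genes. They stood in 15.3% of the promoters of genes lowered in both states but more in senescent cells (38 of 248), and in 80.0% of those of listed interferon-stimulated genes (28 of 35), and the other direction classes held 3.77 to 11.4%. The AP-1 letters TGANTCA stood in 7.76% of all promoters, 5.31% of those of tested genes, and 10.2% of those of genes that rose in proliferating and fell in senescent cells (9 of 88). For genes of the reverse pattern the share was 4.17% (3 of 72), and the other classes held 3.30 to 11.1%. The amino acid response letters TGATGNAA, a search added after the gene lists had been seen, stood in 3.67% of all promoters and 2.02% of those of tested genes. They stood in 21.1% of those of listed ATF4 targets (4 of 19) and in 37.5% of those of aminoacyl-tRNA synthetase genes (6 of 16), whose differences went 4 up and 4 down. Such matches only describe the letters of these windows.

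The effect of doxycycline depended on the state for about 1 gene in 5. The difference passed the test for 3407 genes, which is 19.9% of those tested. It was higher in senescent cells for 1386 genes (8.08%) and lower for 2021 (11.8%), and 937 of them differed by more than 2-fold, 417 higher and 520 lower. Doxycycline alone passed for 3938 genes in proliferating cells (23.0%, of which 12.6% higher and 10.4% lower, as shares of genes tested). In senescent cells it passed for 7951 genes (46.3%, with 22.6% higher and 23.8% lower). Of the 9094 genes called in at least 1 state, 3292 (36.2%) also had a called difference. The balance of higher and lower depended on scaling: 40.7% of called differences were higher as analysed, and 70.4% with total counts alone. Tested against a 1.5-fold change instead of 0, the difference passed for 517 genes.

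**Figure D1:**
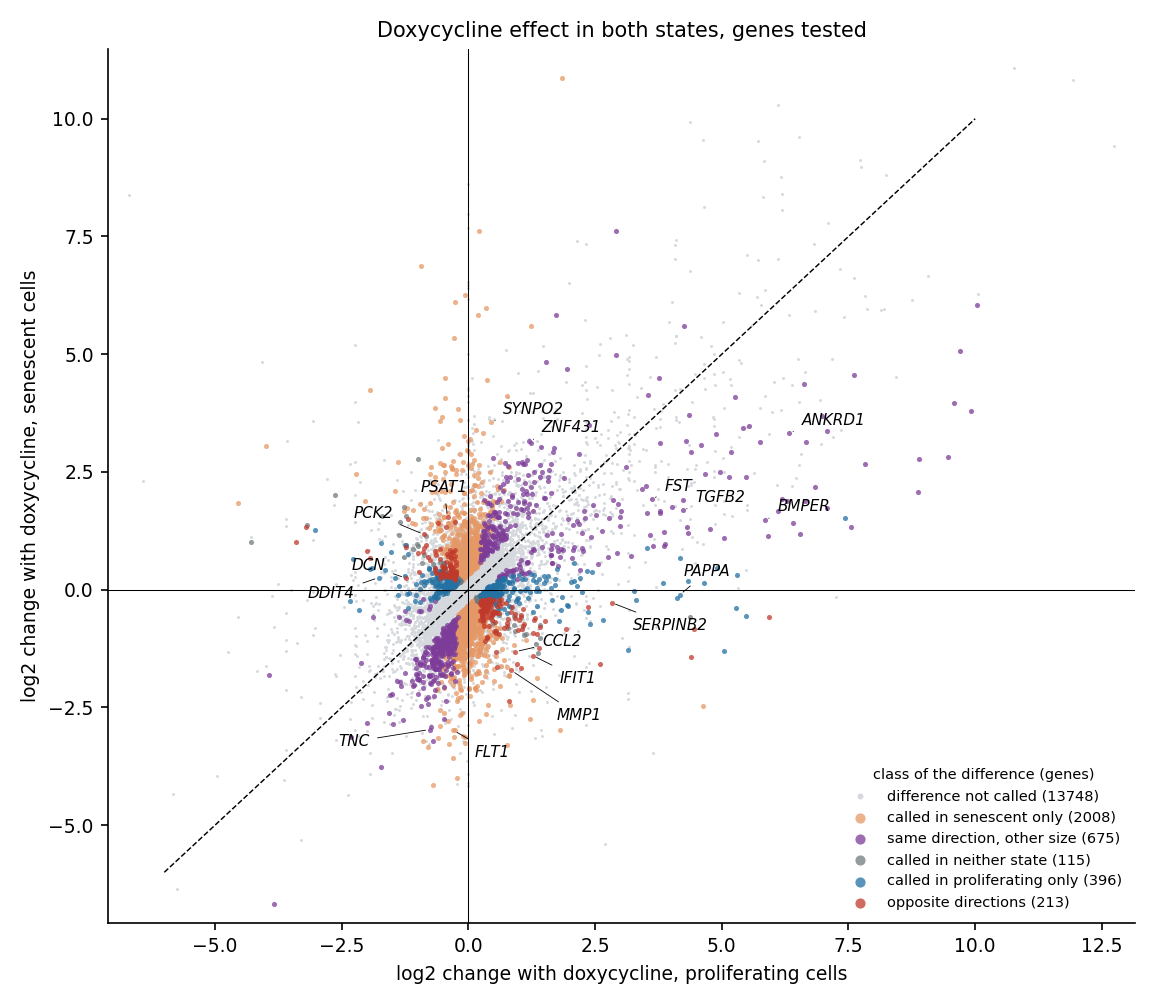
Log2 change with doxycycline in proliferating cells (x axis) against senescent cells (y axis) for each of 17155 genes, with genes of called difference coloured by direction class. Most genes lie near the origin, ANKRD1 and BMPER lie far to the right, and the opposite-direction genes fill the upper left and lower right quadrants. With total-count scaling the points shift up by about 0.17 on the y axis.

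The effects in the states resembled each other only in part. Across all genes tested, the 2 changes, which share no library, correlated at r = 0.556 (Spearman's rho 0.443), and across the 9679 genes whose mean log2 CPM reached 3 at r = 0.603 (rho 0.552). Genes are not independent replicates, so these are descriptions. The typical change was larger in senescent cells, with a median absolute log2 value of 0.374 against 0.234 in proliferating cells, at similar median SEs of 0.124 and 0.121. Of the 2795 genes called in both states, 2582 moved the same way and 213 opposite ways. The difference passed for all of the 213, which nearly follows from their definition, as effects of opposite sign add up in it. It did not pass for 1907 of the 2582.

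Genes with a called difference fell into classes by which single-state effects passed. In 2008 genes only the senescent effect passed (880 higher, 1128 lower), in 396 only the proliferating effect (246 higher, 150 lower). In 675 genes both passed in the same direction, in 213 in opposite directions, and in 115 neither passed alone. A missed threshold does not show that a gene was unmoved, so a stricter count was made of genes whose 95% interval in the other state lay within 1.5-fold. It held for 655 of the 880 genes raised in senescent cells only (74.4%) and for 957 of the 1128 lowered there only (84.8%). It held for 193 of the 246 raised (78.5%) and 117 of the 150 lowered (78.0%) in proliferating cells only. Total-count scaling turned the senescent-only split to 1773 higher and 553 lower.

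**Figure D2:**
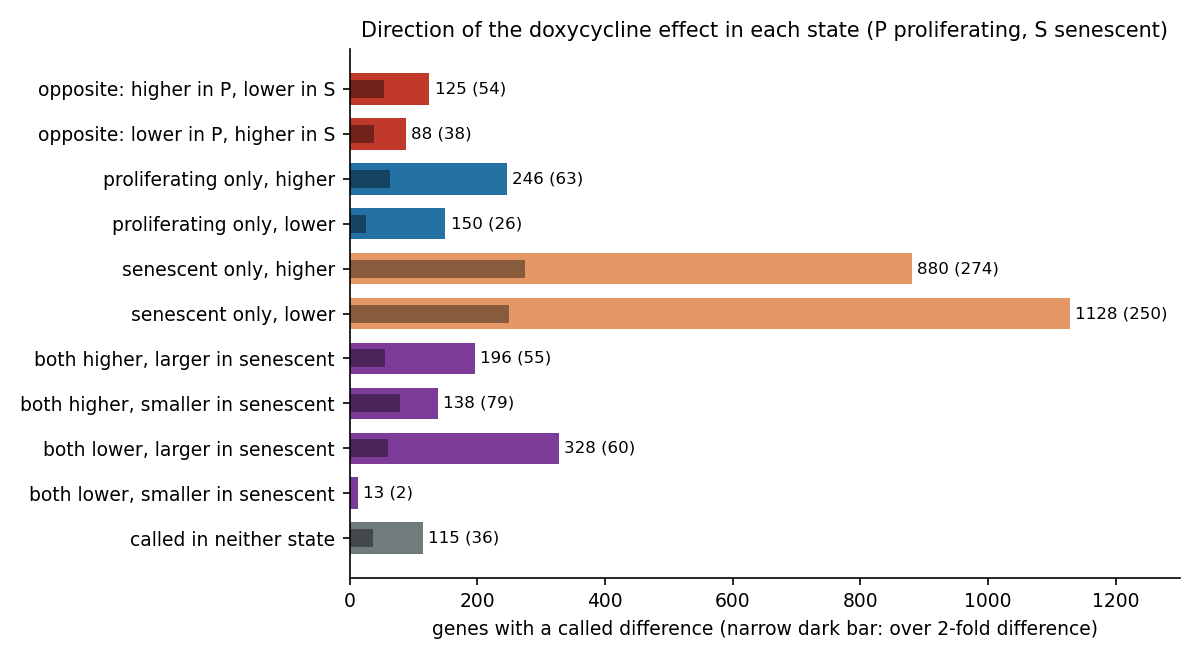
Number of genes with a called difference in each direction class (bars; P is proliferating, S senescent), with the part differing by more than 2-fold in dark. Genes moved only in senescent cells are the most numerous, 880 higher and 1128 lower, and with total-count scaling these become 1773 and 553.

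Among genes that rose in proliferating and fell in senescent cells, 125 in all, were the protease gene MMP1, the chemokine gene CCL2, the protease inhibitor gene SERPINB2, the interferon-stimulated gene IFIT1 and the Wnt antagonist gene SFRP1. Their median log2 changes were 0.46 in proliferating and -0.48 in senescent cells. MMP1, interstitial collagenase (chromosome 11, 102789919 to 102798160), read 295 and 282 CPM in proliferating cells, 497 and 539 CPM after doxycycline, 2643 and 2000.1 CPM in senescent cells and 764 and 654 CPM with doxycycline. The 4 groups did not overlap: doxycycline lifted the low proliferating level and lowered the high senescent level, and the treated groups ended closer together. The change was 0.84 (SE 0.12, adjusted p = 1.16e-04) in proliferating cells and -1.71 (SE 0.12, adjusted p = 3.58e-08) in senescent cells, and the difference was -2.56 (SE 0.17, adjusted p = 2.59e-07). The transcribed pseudogene WTAPP1 (chromosome 11, 102783676 to 102836766) overlaps MMP1 and MMP3 in the annotation and moved likewise, with 47.4 and 46.3 CPM in proliferating cells, 75.8 and 88.0 CPM after doxycycline, 708 and 508 CPM in senescent cells and 127 and 109 CPM with doxycycline. Its reads cannot be assigned with certainty, as the strand setting of the counting is not given (log2 difference -3.17, SE 0.21, adjusted p = 8.54e-06).

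SERPINB2, an inhibitor of the plasminogen activator urokinase (chromosome 18, 63887705 to 63903888), read 22.7 and 20.8 CPM in proliferating cells, 151 and 157 CPM after doxycycline, 465 and 359 CPM in senescent cells and 339.6 and 341 CPM with doxycycline. Its groups did not overlap either, and the senescent level stayed above the proliferating level at both treatments. It rose 7.09-fold in proliferating cells, while the fall in senescent cells was small (log2 -0.27, SE 0.10, adjusted p = 0.0381; log2 difference -3.10, SE 0.15, adjusted p = 7.61e-09). With total-count scaling that small fall did not pass (log2 -0.10, adjusted p = 0.393). CCL2, the monocyte-attracting chemokine (chromosome 17, 34255285 to 34257203), read 2.66 and 2.73 CPM in proliferating cells, 5.35 and 4.88 CPM after doxycycline, 40.0 and 35.8 CPM in senescent cells and 14.7 and 15.7 CPM with doxycycline. It gave the same order of groups as MMP1, with no overlap, and changed by 0.92 in proliferating cells and -1.32 in senescent cells on the log2 scale (log2 difference -2.24, SE 0.16, adjusted p = 4.03e-07).

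IFIT1, which binds foreign RNA lacking a host cap (chromosome 10, 89392623 to 89406487), read 16.2 and 17.5 CPM in proliferating cells, 42.2 and 39.1 CPM after doxycycline, 380.3 and 381 CPM in senescent cells and 149 and 139 CPM with doxycycline. Groups were clearly apart, with the highest values in senescent cells without doxycycline. Its changes were 1.27 in proliferating cells and -1.40 in senescent cells (log2 difference -2.67, SE 0.12, adjusted p = 2.57e-09), though it lies inside the span of LIPA, whose reads could be mixed with its own. LIPA, lysosomal acid lipase, rose and fell by less, 0.61 and -0.34 in the same order (log2 difference -0.95, SE 0.11, adjusted p = 2.18e-05). IFI30, a lysosomal thiol reductase that prepares antigens (chromosome 19, 18173813 to 18178117), read 6.27 and 6.16 CPM without and 13.7 and 10.9 CPM with doxycycline in proliferating cells, against 30.0 and 29.1 CPM without and 16.3 and 16.4 CPM with it in senescent cells. The changes of 0.98 and -0.85 left the treated groups between the untreated ones (log2 difference -1.83, SE 0.16, adjusted p = 2.19e-06). IFI30 and IFIT1 were also the only opposite-direction genes of this kind when every effect was tested against a 1.5-fold change instead of 0.

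SFRP1, which binds Wnt ligands (chromosome 8, 41261962 to 41309473), read 128 and 122 CPM in proliferating cells, 186 and 180.0 CPM after doxycycline, 151 and 138 CPM in senescent cells and 54.0 and 61.4 CPM with doxycycline. Here the untreated levels were alike in both states, and doxycycline parted them, up by 0.55 and down to a log2 change of -1.32 (log2 difference -1.87, SE 0.12, adjusted p = 1.21e-07). RGS4, a brake on G protein signalling (chromosome 1, 163068871 to 163076802), also rose and fell, from 15.2 and 14.1 to 34.1 and 38.8 CPM in proliferating and from 27.9 and 24.3 to 16.0 and 18.5 CPM in senescent cells (log2 difference -1.91, SE 0.15, adjusted p = 8.78e-07). The histone genes H2BC4 and H2BC21, both members of a family with near-identical copies whose reads are uncertain, changed by 2.36 and -0.37 and by 1.29 and -0.64 on the log2 scale in proliferating and senescent cells. Their differences were -2.73 (adjusted p = 2.59e-07) and -1.93 (adjusted p = 3.47e-06). H2BC4 left the class with total-count scaling, where its senescent change was -0.20 (adjusted p = 0.185).

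**Figure D3:**
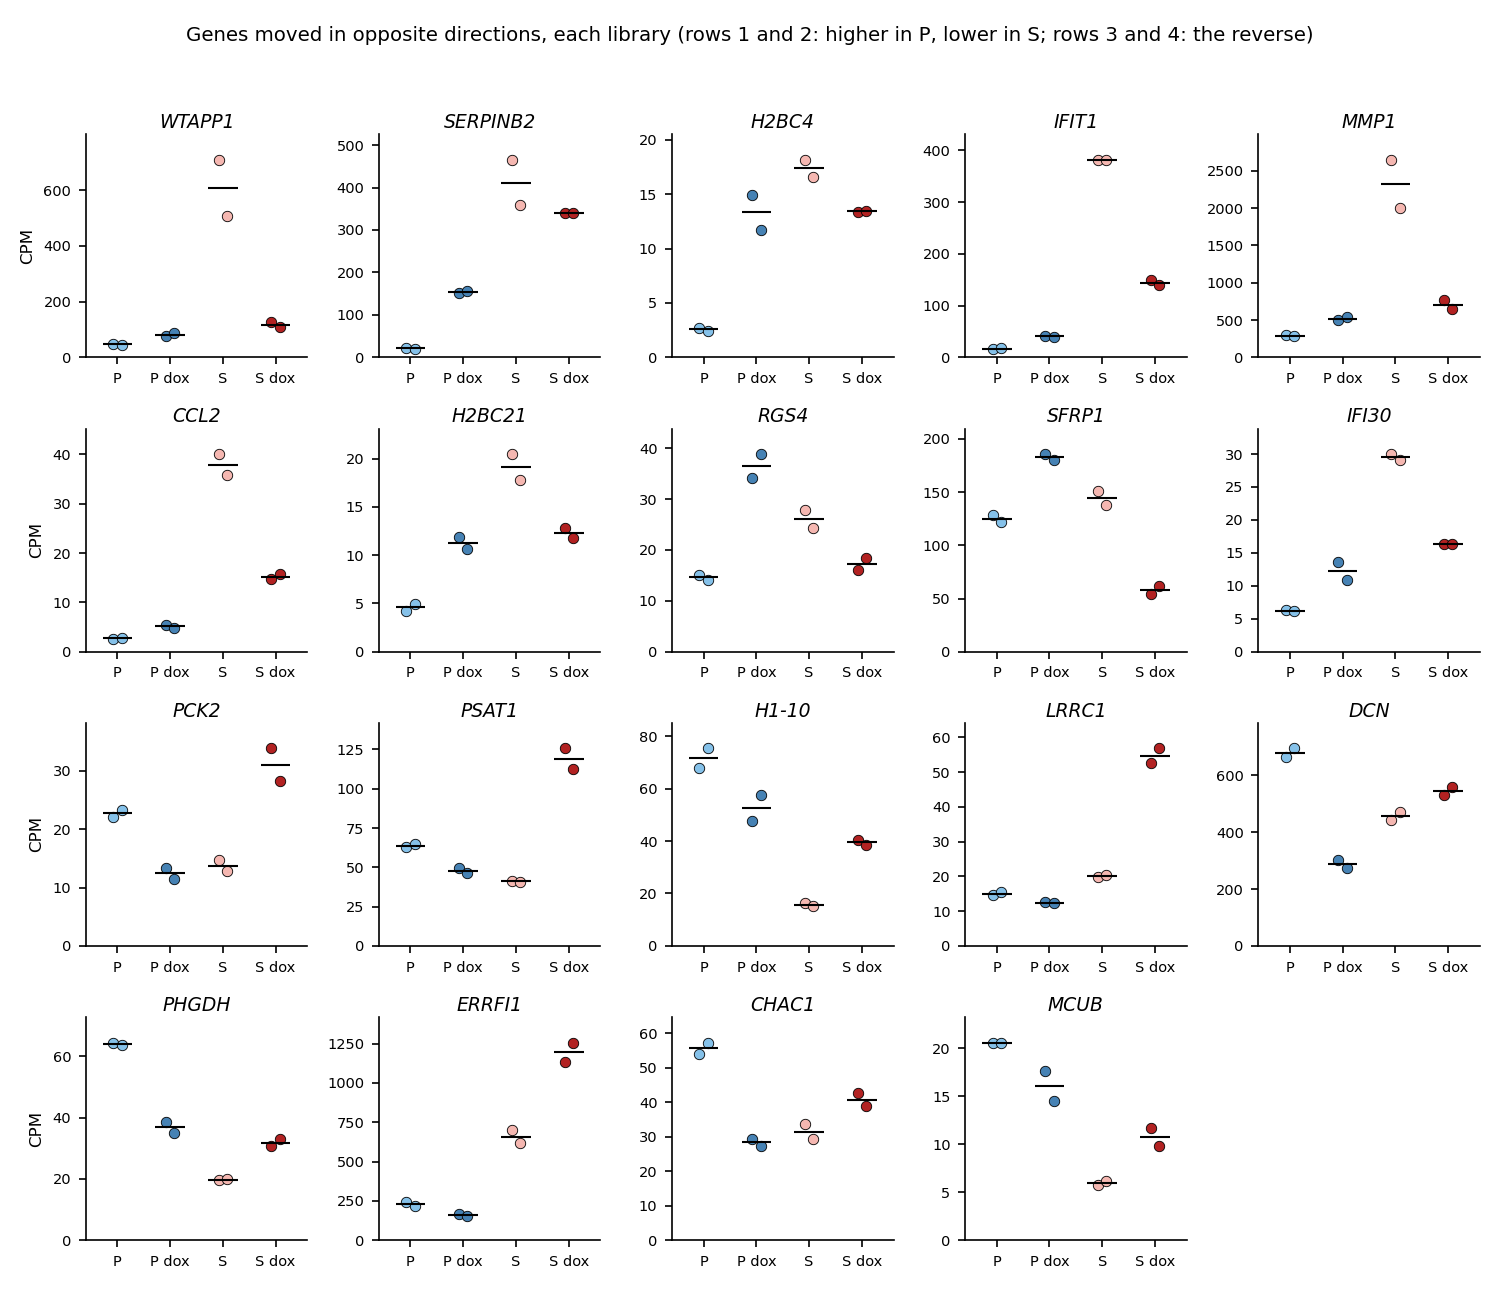
Level in CPM (y axis, linear from 0) of 19 opposite-direction genes with large differences in each of the 8 libraries, 2 points a group with the group mean as a line. Rows 1 and 2 rise in proliferating cells and fall in senescent cells, rows 3 and 4 do the reverse; SERPINB2 and H2BC4 lose the called senescent fall with total-count scaling.

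The reverse pattern, a fall in proliferating and a rise in senescent cells, held for 88 genes, among them PSAT1, PHGDH, PCK2, CHAC1 and DCN. The median log2 changes were -0.41 and 0.47. PHGDH, PSAT1 and PSPH, the enzymes that make serine from glycolytic 3-phosphoglycerate, all belonged to it. PSAT1 (chromosome 9, 78297125 to 78330093) read 62.7 and 64.8 CPM in proliferating cells, 49.6 and 46.2 CPM after doxycycline, 41.6 and 40.6 CPM in senescent cells and 126 and 113 CPM with doxycycline. Both senescent libraries with doxycycline were above all other libraries, and both without it were the lowest. The gene changed by -0.41 (SE 0.08, adjusted p = 0.00163) in proliferating cells and 1.54 (SE 0.08, adjusted p = 1.07e-09) in senescent cells, giving the difference of 1.95 (SE 0.12, adjusted p = 8.41e-08). PHGDH (chromosome 1, 119711934 to 119744215) read 64.5 and 63.7 CPM in proliferating cells, 38.7 and 35.0 CPM after doxycycline, 19.7 and 19.9 CPM in senescent cells and 30.8 and 33.0 CPM with doxycycline. It was highest in untreated proliferating cells, and the treated levels of both states came close (log2 difference 1.49, SE 0.12, adjusted p = 1.14e-06). For PSPH the changes were -0.32 and 0.42 (log2 difference 0.74, SE 0.13, adjusted p = 8.84e-04).

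PCK2, the mitochondrial enzyme that makes phosphoenolpyruvate (chromosome 14, 24094171 to 24104125), read 22.1 and 23.3 CPM in proliferating cells, 13.3 and 11.5 CPM after doxycycline, 14.7 and 12.8 CPM in senescent cells and 33.8 and 28.3 CPM with doxycycline. The direction was opposite in the states with no overlap between treated and untreated libraries of either (log2 difference 2.05, SE 0.16, adjusted p = 8.21e-07). CHAC1, which degrades glutathione and is a classical ATF4-CHOP target (chromosome 15, 40953471 to 40956512), read 54.1 and 57.2 CPM in proliferating cells, 29.4 and 27.4 CPM after doxycycline, 33.5 and 29.2 CPM in senescent cells and 42.6 and 38.8 CPM with doxycycline. It fell in proliferating and rose in senescent cells, with no overlap of treated and untreated libraries within either state (log2 difference 1.35, SE 0.13, adjusted p = 6.58e-06). The linker histone gene H1-10 changed by -0.44 and 1.34 in proliferating and senescent cells (log2 difference 1.78, SE 0.14, adjusted p = 9.36e-07).

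ERRFI1, the feedback inhibitor of the EGF receptor (chromosome 1, 8011727 to 8026309), read 246 and 219 CPM in proliferating cells, 164 and 151 CPM after doxycycline, 699 and 618 CPM in senescent cells and 1132 and 1256 CPM with doxycycline. Its level spanned the widest absolute range of this class's top genes, with both senescent groups above both proliferating groups (log2 difference 1.42, SE 0.14, adjusted p = 6.07e-06). DCN, the matrix proteoglycan decorin that marks fibroblasts (chromosome 12, 91140484 to 91182817), read 665 and 694 CPM in proliferating cells, 302 and 274 CPM after doxycycline, 444 and 472 CPM in senescent cells and 529 and 559 CPM with doxycycline. The fall in proliferating cells was 2.36-fold, while the rise in senescent cells was small (log2 0.25, SE 0.08, adjusted p = 0.0261; log2 difference 1.49, SE 0.12, adjusted p = 1.03e-06). LRRC1, a scaffold of the cell border, changed by -0.27 and 1.44 (log2 difference 1.71, SE 0.13, adjusted p = 4.67e-07). MCUB, a subunit that restrains the mitochondrial calcium channel, changed by -0.36 and 0.85 (log2 difference 1.21, SE 0.18, adjusted p = 2.43e-04). The proliferating fall of LRRC1 was close to the threshold (adjusted p = 0.0488), as was that of MCUB (adjusted p = 0.0397). All 19 differences named for the opposite classes kept their sign and their call in every alternative.

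The 8 genes named for a rise in proliferating cells only all stood higher in untreated senescent than in untreated proliferating libraries. Untreated levels enter the difference by which these genes were picked, so this order is partly built in and is no separate result. PAPPA, a protease that frees insulin-like growth factor from its binding protein (chromosome 9, 116153791 to 116402321), read 5.74 and 6.19 CPM in proliferating cells, 93.9 and 121 CPM after doxycycline, 197 and 232 CPM in senescent cells and 177 and 219.9 CPM with doxycycline. Doxycycline lifted it 18.0-fold in proliferating cells to a level still under all senescent libraries, where treated and untreated libraries overlapped (log2 -0.11, adjusted p = 0.542; log2 difference -4.28, SE 0.21, adjusted p = 5.78e-07). Its antisense RNA PAPPA-AS1, which cannot be told apart from it without strand, gave -4.28 (adjusted p = 9.64e-06). DSP, a desmosome plaque protein, rose from 10.2 and 9.17 to 36.3 and 43.1 CPM in proliferating cells and stood at 80.3 and 88.9 CPM in senescent cells and 91.4 and 99.3 CPM with doxycycline (log2 difference -1.86, SE 0.14, adjusted p = 5.78e-07).

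The same held for IL7R, the interleukin-7 receptor, from 42.8 and 40.5 to 90.2 and 98.1 CPM in proliferating and from 168 and 179.9 to 144 and 163 CPM in senescent cells (log2 difference -1.36, SE 0.12, adjusted p = 2.56e-06). The pregnancy glycoprotein gene PSG1, of a family with close copies, read 7.79 and 7.37 CPM without and 20.8 and 21.6 CPM with doxycycline in proliferating cells, against 135 and 122 CPM without and 147 and 137 CPM with it in senescent cells (log2 difference -1.34, SE 0.12, adjusted p = 3.47e-06). SERPING1, the inhibitor of complement C1, rose 2.54-fold in proliferating cells from 1.39 and 1.88 CPM, still far below the senescent 109 and 77.2 CPM (log2 difference -1.70, SE 0.27, adjusted p = 0.00168). SAMD12 and the mitochondrial phosphatase gene PPM1K followed with differences of -1.62 (adjusted p = 2.98e-05) and -1.30 (adjusted p = 1.44e-05).

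Genes lowered in proliferating cells only included several known stress-response genes. DDIT4, the inhibitor of the growth kinase mTORC1 (chromosome 10, 72273924 to 72276036), read 62.8 and 62.2 CPM in proliferating cells, 20.4 and 16.4 CPM after doxycycline, 59.1 and 48.8 CPM in senescent cells and 71.3 and 57.9 CPM with doxycycline. It fell 3.40-fold in proliferating cells with wide separation, while the senescent groups overlapped (log2 difference 2.03, SE 0.18, adjusted p = 8.54e-06). PDGFRA, the receptor for platelet-derived growth factor and a fibroblast marker, read 134 and 147 CPM without and 71.5 and 82.2 CPM with doxycycline in proliferating cells, against 122 and 150.3 CPM without and 155 and 154 CPM with it in senescent cells (log2 difference 1.05, SE 0.14, adjusted p = 1.11e-04). The survival kinase gene PIM1 changed by -1.17 and -0.06 (log2 difference 1.11, SE 0.15, adjusted p = 1.17e-04) and DEPP1, a regulator of autophagy, by -1.38 and -0.12 (log2 difference 1.27, SE 0.20, adjusted p = 7.81e-04). LIN7A, SLFN11, NUPR1 and FBLN7 completed the group of 8, with differences of 1.15, 0.94, 0.98 and 0.94. FBLN7 lost its call without proliferating replicate 2 (log2 difference 0.77, adjusted p = 0.0598) or without replicate 2 of the senescent libraries with doxycycline (log2 difference 0.79, adjusted p = 0.0543). With total-count scaling DDIT4, LIN7A, PDGFRA, SLFN11 and FBLN7 also passed as raised in senescent cells, which would place them among the opposite-direction genes.

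In senescent cells only, doxycycline raised SYNPO2, an actin-binding protein of muscle (chromosome 4, 118850681 to 119061247), which read 2.27 and 1.80 CPM in proliferating cells, 2.97 and 2.60 CPM after doxycycline, 8.51 and 13.8 CPM in senescent cells and 125 and 138 CPM with doxycycline. The treated senescent libraries stood far above all 6 others (senescent rise 11.8-fold; log2 difference 3.12, SE 0.35, adjusted p = 4.70e-04). CXADR, the adenovirus receptor of epithelial junctions, read 28.6 and 28.7 CPM without and 28.4 and 24.2 CPM with doxycycline in proliferating cells, against 16.4 and 15.7 CPM without and 43.0 and 40.4 CPM with it in senescent cells (log2 difference 1.5, SE 0.13, adjusted p = 2.54e-06). KRT80, an epithelial keratin, rose 3.07-fold in senescent cells and not detectably in proliferating cells, where its log2 change was -0.09 with SE 0.15 (log2 difference 1.71, SE 0.21, adjusted p = 4.64e-05). The long noncoding host transcript MIR193BHG gave a difference of 2.32 (adjusted p = 1.37e-06). DOC2A, a calcium sensor of vesicle release, MCMDC2, a meiotic protein, and DIPK2A, a secreted kinase-like protein, gave 1.47, 1.39 and 1.39. In the annotation DOC2A overlaps INO80E, MCMDC2 overlaps SNHG6 and CXADR overlaps BTG3, so the reads of these genes are uncertain. ZNF714, of a zinc-finger family with close copies, gave 1.55 and lost its call without senescent replicate 1 (log2 difference 1.34, adjusted p = 0.0521).

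Lowered in senescent cells only were FLT1, IFIT2, CTSK, SCUBE3 and COLEC12. FLT1, a receptor for vascular endothelial growth factor (chromosome 13, 28300346 to 28495128), read 9.47 and 10.4 CPM in proliferating cells, 7.50 and 8.62 CPM after doxycycline, 79.7 and 69.8 CPM in senescent cells and 8.51 and 10.4 CPM with doxycycline. Its high senescent level came down to the proliferating range with doxycycline (log2 difference -2.69, SE 0.17, adjusted p = 1.16e-07). The collagen-degrading protease gene CTSK, cathepsin K, read 21.5 and 21.8 CPM in proliferating cells, 20.1 and 19.2 CPM after doxycycline, 54.9 and 51.3 CPM in senescent cells and 12.7 and 11.4 CPM with doxycycline. The treated senescent libraries were the lowest of all 8 and the untreated ones the highest (log2 difference -1.99, SE 0.13, adjusted p = 1.57e-07). SCUBE3, a secreted signalling protein, fell 3.72-fold from 134 and 144 CPM (log2 difference -1.96, SE 0.14, adjusted p = 3.24e-07), and the scavenger receptor gene COLEC12 5.17-fold from 8.65 and 8.97 CPM (log2 difference -2.15, SE 0.24, adjusted p = 2.61e-05). IFIT2 is described with the interferon genes. The mitochondrial tRNA genes TRNP and TRNY gave differences of -2.84 (adjusted p = 6.40e-04) and -2.28 (adjusted p = 2.77e-08). The long noncoding CLMAT3 overlaps the matrix gene SPARC, so its value of -1.96 is uncertain.

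Among genes that moved the same way in both states, those raised less in senescent cells included ANKRD1, BMPER and TGFB2. By its definition the rise is the larger in proliferating cells: in this class of 138 genes the median log2 rise was 2.60 in proliferating and 1.19 in senescent cells. ANKRD1, a cardiac ankyrin repeat protein and classical YAP target (chromosome 10, 90912096 to 90921087), read 3.08 and 3.68 CPM in proliferating cells, 277 and 266 CPM after doxycycline, 94.6 and 71.7 CPM in senescent cells and 851 and 822 CPM with doxycycline. All 4 groups were apart, and the senescent level without doxycycline was already many times the proliferating one. The rise was 80.3-fold in proliferating and 10.1-fold in senescent cells (log2 difference -3.00, SE 0.18, adjusted p = 9.59e-08). In absolute CPM, though, the gain was larger in senescent cells. Such a turn of sign between the log2 and the CPM scale was found for 76 of the 138 genes of this class (55.1%), against 142 of the 3407 called differences (4.17%).

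BMPER, a binding protein of bone morphogenetic proteins (chromosome 7, 33904915 to 34156427), read 0.659 and 0.601 CPM in proliferating cells, 37.5 and 35.6 CPM after doxycycline, 15.5 and 18.1 CPM in senescent cells and 45.8 and 48.7 CPM with doxycycline. From under 1 CPM it rose 57.6-fold in proliferating cells and 2.81-fold in senescent cells (log2 difference -4.36, SE 0.18, adjusted p = 2.57e-09). The ligand gene TGFB2 read 6.86 and 7.84 CPM in proliferating cells, 123 and 152 CPM after doxycycline, 65.6 and 64.3 CPM in senescent cells and 197 and 222 CPM with doxycycline. It followed the same order of groups as ANKRD1 (log2 difference -2.54, SE 0.15, adjusted p = 9.59e-08). RNF144B, a ubiquitin ligase, LCE2A, of the cornified envelope family, and PSG2, of the pregnancy glycoprotein family, gave differences of -2.49, -2.91 and -1.78. The last 2 belong to families with close copies.

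Raised more in senescent cells were 196 genes, with medians of 0.56 and 1.34. FLRT2, a cell-surface guidance protein, read 36.6 and 35.5 CPM in proliferating cells, 68.6 and 72.6 CPM after doxycycline, 13.2 and 12.7 CPM in senescent cells and 83.7 and 83.6 CPM with doxycycline. Bleomycin-treated cells started lower and ended higher (log2 difference 1.72, SE 0.11, adjusted p = 1.64e-07). The zinc-finger gene ZNF431 rose 2.30-fold and 8.99-fold (log2 difference 1.97, SE 0.15, adjusted p = 7.54e-07), and R3HCC1L 2.07-fold and 6.59-fold (log2 difference 1.67, SE 0.14, adjusted p = 1.03e-06). NEK7, a kinase of the inflammasome, changed by 0.42 and 1.98 (log2 difference 1.56, SE 0.13, adjusted p = 1.51e-06). The pseudogene FRG1BP and the antisense RNA HIF1A-AS2 gave 1.98 and 1.61, both with uncertain reads.

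Lowered more in senescent cells were 328 genes, with medians of -0.50 and -1.23. TNC, the matrix protein tenascin-C (chromosome 9, 115019575 to 115118157), read 152 and 159.8 CPM in proliferating cells, 81.7 and 102 CPM after doxycycline, 637 and 717 CPM in senescent cells and 80.9 and 92.0 CPM with doxycycline. The high senescent level fell to that of treated proliferating cells, whose values it overlapped (log2 difference -2.20, SE 0.15, adjusted p = 2.59e-07). POU2F2, a transcription factor best known from B cells, fell 1.40-fold and 6.67-fold (log2 difference -2.26, SE 0.15, adjusted p = 2.59e-07). ERAP2, which trims peptides for antigen presentation, and OAS3, an RNA sensor, gave differences of -1.68 and -1.63. NRP1, a coreceptor of semaphorins, and BTN3A3, a ligand-like butyrophilin, gave -1.52 and -1.57.

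The class lowered less in senescent cells held 13 genes. The 6 named were MASP1, a protease of the lectin pathway (log2 difference 0.57, SE 0.11, adjusted p = 0.00268), LBH (0.60), BHLHE40 (0.71), TSLP (0.81), CEBPD (0.51) and EEPD1 (0.51). MASP1 fell 4.35-fold and 2.92-fold. CEBPD lost its call without proliferating replicate 2 (adjusted p = 0.173), replicate 2 of proliferating cells with doxycycline (0.0562), either senescent replicate (0.0563 and 0.0528) or replicate 1 of senescent cells with doxycycline (0.104). EEPD1 lost it without any of 6 libraries, at adjusted p values of 0.0831 to 0.181, and kept it without replicate 2 of proliferating cells with doxycycline and without senescent replicate 1. With all 8 libraries it was also lost with DESeq2 (0.0857), limma-voom (0.0549), no filter (0.0504) and the description's number as a block (0.0819).

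The gene lists that follow were drawn up with earlier results of these data known. For each, the number of members with a called difference is read against the 19.9% of all tested genes, and medians against those over all genes, which were 0.00 in either state and -0.03 for the difference. Counts of members that rose or fell in a single state are read against the shares of all tested genes. These were 12.6% higher and 10.4% lower in proliferating cells, and 22.6% higher and 23.8% lower in senescent cells. In these bulk samples fewer cells of a kind and less RNA per cell cannot be told apart.

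**Figure D4:**
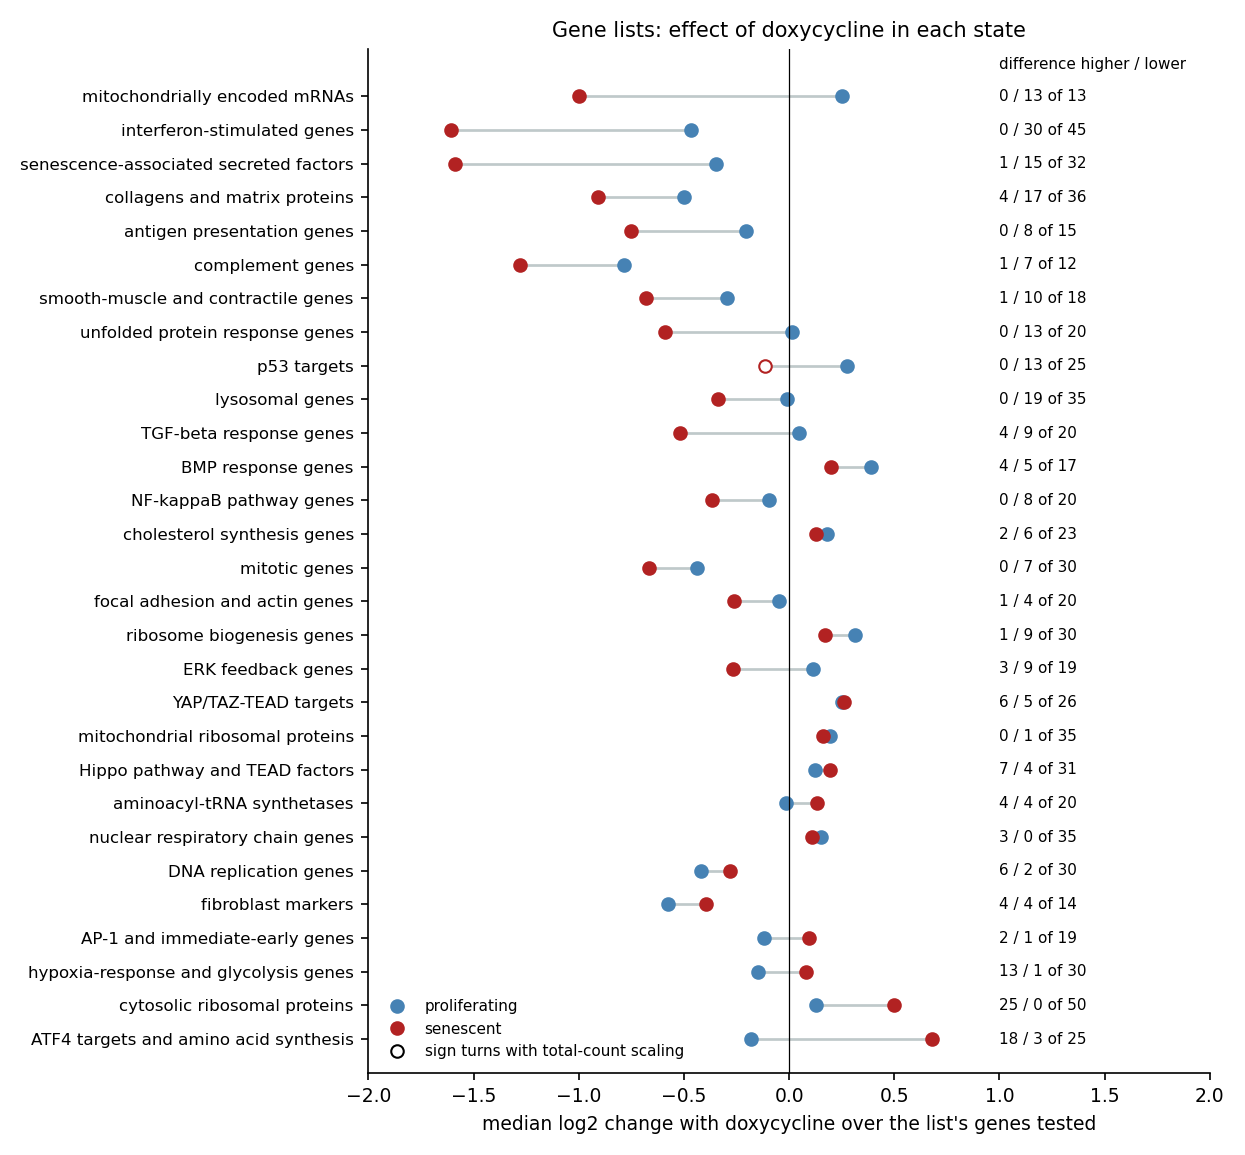
Median log2 change with doxycycline in proliferating and in senescent cells for each list, with the number of members whose difference was called higher or lower. Interferon, secreted-factor, complement and mitochondrial mRNA lists lie lowest in senescent cells, at medians of -1.61, -1.59, -1.28 and -1.0, ATF4 targets and cytosolic ribosomal proteins lie higher there. With total-count scaling the senescent median of p53 targets turns to 0.06, and the median difference turns sign for YAP targets, Hippo, ERK feedback, ribosome biogenesis and mitochondrial ribosomal protein genes.

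YAP's own targets did not share 1 direction of state dependence. Of 26 listed YAP/TAZ-TEAD targets the difference was 6 higher and 5 lower of 26 tested (42.3% called), with medians of 0.25 in proliferating cells, 0.26 in senescent cells and -0.06 for the difference. With total-count scaling the median difference was 0.12. CCN2, connective tissue growth factor (chromosome 6, 131948176 to 131951372), read 784 and 786 CPM in proliferating cells, 843 and 803 CPM after doxycycline, 871 and 799.6 CPM in senescent cells and 1801 and 1777 CPM with doxycycline. Only the treated senescent libraries stood apart, at a 2.14-fold rise, while the other 6 lay between 784 and 871 CPM (log2 difference 1.03, SE 0.12, adjusted p = 3.88e-05). The receptor tyrosine kinase gene AXL changed by 0.26 and 1.01 (log2 difference 0.76, SE 0.12, adjusted p = 3.72e-04), and the scaffold gene AJUBA by 0.61 and 1.32 (log2 difference 0.71, SE 0.10, adjusted p = 2.20e-04). By contrast WWC1, an upstream Hippo scaffold, changed by 2.95 and 1.82 (log2 difference -1.13, SE 0.17, adjusted p = 3.69e-04), and IGFBP3, a carrier of insulin-like growth factors, by 0.36 and -0.44, in opposite directions (log2 difference -0.80, SE 0.17, adjusted p = 0.00358). AMOTL2 and CCN1, the latter a matrix-bound ligand of integrins, rose in both states, and their differences of 0.27 and 0.18 did not pass. Both passed with total-count scaling (adjusted p = 0.0126 and 0.0263), and AMOTL2 also without replicate 2 of proliferating cells with doxycycline (0.0185).

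Of 31 Hippo components and TEAD factors, 7 differences were higher and 4 lower (35.5%), with medians of 0.12 in proliferating cells, 0.19 in senescent cells and -0.01 for the difference. The kinase gene LATS2, part of the negative feedback on YAP, changed by 1.51 and 1.95 (log2 difference 0.44, SE 0.11, adjusted p = 0.0136), a call lost without either proliferating library or replicate 2 of senescent cells with doxycycline (adjusted p up to 0.0868). TEAD1 changed by 0.13 and 0.61 and TEAD4 by 0.36 and 1.02, while TEAD2 changed by -0.35 and -0.92. All of these TEAD differences were called, at 0.48, 0.66 and -0.57. That of TEAD1 was lost without any of 6 libraries, at adjusted p values of 0.0717 to 0.135, and kept without replicate 2 of proliferating cells with doxycycline or senescent replicate 2. That of TEAD4 was lost without proliferating replicate 1 (adjusted p = 0.0606) or replicate 1 of senescent cells with doxycycline (0.0561). VGLL3, another TEAD partner, changed by 0.48 and 1.32 (log2 difference 0.84, SE 0.18, adjusted p = 0.00872). Without proliferating replicate 1, proliferating replicate 2 or replicate 1 of senescent cells with doxycycline 3 differences were higher, without replicate 2 of that group 4, and with total-count scaling 11.

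The TGF-beta and BMP systems, whose ligands and antagonists include known YAP targets, also had members called in both directions. TGF-beta response genes had 4 higher and 9 lower of 20 tested (65.0%), with medians of 0.05 in proliferating cells, -0.52 in senescent cells and -0.36 for the difference. INHBA, the activin A subunit, rose from 36.4 and 36.3 to 55.0 and 76.1 CPM in proliferating cells and went from 304 and 300.2 to 227 and 239 CPM in senescent cells (log2 difference -1.23, SE 0.16, adjusted p = 1.77e-04). With total-count scaling its senescent change did not pass (adjusted p = 0.180). Without proliferating replicate 2 or replicate 1 of senescent cells with doxycycline 2 members of the list were higher. BMP response genes had 4 higher and 5 lower of 17 tested (52.9%), with medians of 0.39 in proliferating cells, 0.20 in senescent cells and -0.32 for the difference. FST, the activin antagonist follistatin, read 31.6 and 34.9 CPM in proliferating cells, 420.0 and 396 CPM after doxycycline, 32.2 and 33.1 CPM in senescent cells and 125 and 123 CPM with doxycycline. It rose in both states, 12.3-fold and 3.79-fold, from equal starting levels (log2 difference -1.69, SE 0.11, adjusted p = 2.03e-07). GREM1, a BMP antagonist, moved in opposite directions by 0.52 and -0.47 (log2 difference -0.99, SE 0.15, adjusted p = 2.88e-04), and the ligand gene BMP4 fell in senescent cells only, by 1.39 (log2 difference -1.35, SE 0.16, adjusted p = 4.71e-05). The higher members numbered 1 without proliferating replicate 2 and 2 without proliferating replicate 1 or replicate 2 of either group with doxycycline.

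Interferon-stimulated genes were lowered in senescent cells to a larger extent than in proliferating cells. Their difference was 0 higher and 30 lower of 45 tested (66.7%), with medians of -0.47 in proliferating cells, -1.61 in senescent cells and -1.07 for the difference. In senescent cells 44 of 45 fell, in proliferating cells 21 fell and 1, IFIT1, rose. IFIT2, of the same family, read 6.47 and 6.59 CPM in proliferating cells, 6.65 and 7.55 CPM after doxycycline, 61.7 and 69.1 CPM in senescent cells and 14.0 and 16.6 CPM with doxycycline. The untreated senescent libraries stood well above the other 6 (log2 difference -2.22, SE 0.16, adjusted p = 3.81e-07). ISG15, a ubiquitin-like modifier (chromosome 1, 1013497 to 1014540), read 18.8 and 19.1 CPM in proliferating cells, 20.7 and 19.1 CPM after doxycycline, 252 and 244 CPM in senescent cells and 109.9 and 117 CPM with doxycycline. It too changed in senescent cells only, by -1.13 against 0.07 (log2 difference -1.20, SE 0.11, adjusted p = 4.25e-06). MX1, an antiviral GTPase, changed by -0.73 and -2.91 (log2 difference -2.18, SE 0.27, adjusted p = 5.90e-05). IFI44L and CXCL11, nearly absent from proliferating cells, lost their calls without replicate 2 of proliferating cells with doxycycline (log2 difference -2.58, adjusted p = 0.0502, and log2 difference -1.5, adjusted p = 0.331).

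Immune presentation and complement followed the same side. Antigen presentation genes had 0 higher and 8 lower of 15 tested (53.3%), with medians of -0.21 in proliferating cells, -0.75 in senescent cells and -0.57 for the difference. B2M, the light chain of MHC class I, read 108 and 106 CPM in proliferating cells, 96.1 and 83.4 CPM after doxycycline, 322 and 336 CPM in senescent cells and 172 and 148 CPM with doxycycline. Only its senescent fall passed (log2 difference -0.78, SE 0.13, adjusted p = 6.15e-04). Complement genes had 1 higher and 7 lower of 12 tested (66.7%), with medians of -0.79 in proliferating cells, -1.28 in senescent cells and -0.49 for the difference. The protease gene C1S fell 2.09-fold and 4.07-fold (log2 difference -0.96, SE 0.12, adjusted p = 7.72e-05), and C1QTNF1 4.01-fold and 7.13-fold (log2 difference -0.83, SE 0.16, adjusted p = 0.00231). Without proliferating replicate 1 or replicate 1 of senescent cells with doxycycline 5 presentation genes were called lower, as many as with total-count scaling, where 4 complement genes were lower.

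Secreted factors known from senescent cells went the same way, with 15 differences lower and 1 higher, VEGFA, of 32 tested. The higher ones were 2 with total-count scaling or without replicate 1 of proliferating cells with doxycycline. The list had medians of -0.35 in proliferating cells, -1.59 in senescent cells and -0.93 for the difference. In senescent cells 25 fell and 2 rose, in proliferating cells 10 fell and 7 rose. Beside MMP1, SERPINB2 and CCL2, IGFBP3 rose in proliferating and fell in senescent cells. PLAU, urokinase, fell in both states, with log2 changes of -0.71 and -1.81 (log2 difference -1.10, SE 0.13, adjusted p = 4.32e-05), and so did LIF, a cytokine of the interleukin-6 family, with -1.5 and -2.22 (log2 difference -0.73, SE 0.15, adjusted p = 0.00287). CXCL8, interleukin-8, fell in both, with log2 changes of -1.75 and -1.87, and its difference did not pass (log2 difference -0.12, SE 0.34, adjusted p = 0.845). IL6 fell in both states, with log2 changes of -2.19 and -3.11, and its difference did not pass as analysed (log2 difference -0.92, SE 0.33, adjusted p = 0.114). It passed with DESeq2 (adjusted p = 0.0468), limma-voom (0.0476), no filter (9.72e-05), no robust estimation (0.0269), either replicate number as a block (0.00190 and 0.00477) and without either senescent library with doxycycline (0.00386 and 0.0495). NF-kappaB pathway genes had 0 higher and 8 lower of 20 tested (40.0%), with medians of -0.10 in proliferating cells, -0.37 in senescent cells and -0.24 for the difference. BIRC3, an inhibitor of apoptosis that NF-kappaB induces, read 6.54 and 6.11 CPM in proliferating cells, 5.06 and 5.85 CPM after doxycycline, 72.4 and 67.2 CPM in senescent cells and 24.1 and 21.0 CPM with doxycycline. Only its fall in senescent cells passed the test (log2 difference -1.42, SE 0.16, adjusted p = 1.99e-05). TNFAIP3, which terminates NF-kappaB signalling, rose in proliferating cells by 0.61, and its senescent change of -0.24 did not pass (log2 difference -0.85, SE 0.16, adjusted p = 0.00171).

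Of the listed p53 targets 13 of 25 rose in proliferating cells and 4 in senescent cells. Over all genes tested 12.6% and 22.6% rose, so the senescent count was under the background share. The difference was 0 higher and 13 lower of 25 tested (52.0%), with medians of 0.27 in proliferating cells, -0.11 in senescent cells and -0.45 for the difference. In proliferating cells 1 fell, in senescent cells 9, against 10.4% and 23.8% of all genes tested. With total-count scaling the senescent median was 0.06, and 10 differences were lower and 2 higher. BTG2, an antiproliferative protein (chromosome 1, 203305519 to 203309602), read 2.29 and 2.98 CPM in proliferating cells, 6.15 and 5.15 CPM after doxycycline, 30.5 and 26.4 CPM in senescent cells and 17.6 and 17.0 CPM with doxycycline. It rose and fell in opposite directions with no overlap (log2 difference -1.81, SE 0.19, adjusted p = 1.68e-05). MDM2, the ligase that degrades p53, changed by 0.29 and -0.40 (log2 difference -0.70, SE 0.12, adjusted p = 0.00109). CDKN1A, the p21 inhibitor of cyclin-dependent kinases (chromosome 6, 36676463 to 36687332), read 325 and 323 CPM in proliferating cells, 406 and 349 CPM after doxycycline, 1712 and 1531 CPM in senescent cells and 1138 and 1145 CPM with doxycycline. The fall in senescent cells passed and the proliferating change did not (log2 difference -0.73, SE 0.13, adjusted p = 0.00144). GDF15, a stress-induced cytokine, fell in senescent cells by 1.47 (log2 difference -1.16, SE 0.21, adjusted p = 0.00227).

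Most mitotic genes fell in both states, 26 of 30 in proliferating and 23 in senescent cells, and none rose. They had 0 higher and 7 lower of 30 tested (23.3%, near the background share), with medians of -0.44 in proliferating cells, -0.66 in senescent cells and -0.21 for the difference. PLK1, a mitotic kinase, read 140.3 and 135 CPM in proliferating cells, 106 and 105 CPM after doxycycline, 7.22 and 6.20 CPM in senescent cells and 2.85 and 3.24 CPM with doxycycline. Senescent levels were a small part of the proliferating ones at either treatment (log2 difference -0.76, SE 0.15, adjusted p = 0.00188). The mitotic count was 13 without senescent replicate 1, 4 without senescent replicate 2, 3 without either proliferating library or either senescent library with doxycycline, and 2 with total-count scaling. Of the replication genes 24 of 30 fell in proliferating cells, and 13 fell and 3 rose in senescent cells, with 6 higher and 2 lower of 30 tested (26.7%) and medians of -0.42 in proliferating cells, -0.28 in senescent cells and 0.11 for the difference. MCM2 and MCM6, subunits of the replicative helicase, fell in proliferating and rose in senescent cells. MCM6 read 118 and 116 CPM in proliferating cells, 78.4 and 72.2 CPM after doxycycline, 16.4 and 20.9 CPM in senescent cells and 23.8 and 24.7 CPM with doxycycline (log2 difference 1.02, SE 0.14, adjusted p = 1.64e-04), and MCM2 changed by -0.49 and 0.33 (log2 difference 0.82, SE 0.14, adjusted p = 8.31e-04). RRM2, a subunit of ribonucleotide reductase, fell in both states, with log2 changes of -0.54 and -1.39 (log2 difference -0.85, SE 0.17, adjusted p = 0.00278). The 6 higher became 3 without either proliferating library, senescent replicate 1 or replicate 2 of senescent cells with doxycycline. The 2 lower, RRM2 and POLE2, became 1 without proliferating replicate 2, senescent replicate 2 or either senescent library with doxycycline.

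Of 25 ATF4 targets and amino acid genes 19 rose and 3 fell in senescent cells, while 3 rose and 11 fell in proliferating cells. ATF4 is the transcription factor whose translation increases when amino acids run short or proteins misfold. The difference was 18 higher and 3 lower of 25 tested (84.0%), with medians of -0.18 in proliferating cells, 0.68 in senescent cells and 0.88 for the difference, and 8 members fell in proliferating and rose in senescent cells. ATF4 itself read 316 and 321 CPM in proliferating cells, 264 and 241 CPM after doxycycline, 220.4 and 215 CPM in senescent cells and 359.7 and 337 CPM with doxycycline. Its change was -0.34 and 0.68 on the log2 scale in proliferating and senescent cells (log2 difference 1.02, SE 0.11, adjusted p = 2.48e-05). MTHFD2, of mitochondrial folate metabolism, changed by -0.33 and 0.79 (log2 difference 1.12, SE 0.10, adjusted p = 4.17e-06). The amino acid transporter gene SLC7A5 rose in both states, 3.19-fold and 7.60-fold (log2 difference 1.25, SE 0.13, adjusted p = 1.04e-05), and TRIB3, a pseudokinase, in senescent cells only (log2 difference 1.35, SE 0.17, adjusted p = 7.56e-05). The 3 lower were ATF5 (0.47 and -0.50, log2 difference -0.97, SE 0.13, adjusted p = 9.60e-05), ALDH18A1 (-0.49) and STC2 (-0.43), of which 1 was lower without proliferating replicate 2 or replicate 1 of senescent cells with doxycycline, and with total-count scaling. STC2 was also lost without proliferating replicate 1, senescent replicate 1 or replicate 2 of senescent cells with doxycycline (adjusted p of 0.0705 to 0.101).

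Other lists of protein handling gave other counts. Aminoacyl-tRNA synthetase genes had 4 higher and 4 lower of 20 tested (40.0%). AARS1, which charges alanine, gave 0.69 (adjusted p = 4.24e-04), and EPRS1, which charges glutamate and proline, -0.50 (adjusted p = 0.00510). Each direction counted 2 without either proliferating library or replicate 1 of senescent cells with doxycycline, as did the higher ones without replicate 2 of that group and the lower ones with total-count scaling. Unfolded protein response genes had 0 higher and 13 lower of 20 tested (65.0%), with medians of 0.01 in proliferating cells, -0.59 in senescent cells and -0.46 for the difference. HSPA5, the chaperone BiP of the endoplasmic reticulum (chromosome 9, 125234853 to 125241343), read 1173 and 1141 CPM in proliferating cells, 1252 and 1154 CPM after doxycycline, 1874 and 1793 CPM in senescent cells and 1092 and 1225 CPM with doxycycline. Untreated senescent cells were highest and the other groups overlapped (log2 difference -0.72, SE 0.13, adjusted p = 0.00125). PDIA4, a disulfide isomerase, fell in senescent cells by 1.12 (log2 difference -0.92, SE 0.15, adjusted p = 5.18e-04). The 13 became 5 without replicate 1 of senescent cells with doxycycline and 8 without proliferating replicate 2.

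Every mitochondrially encoded mRNA had a lower difference. All 13 passed (100%), with medians of 0.25 in proliferating cells, -1.0 in senescent cells and -1.36 for the difference, and all 13 passed with total-count scaling and with any library left out. In senescent cells all 13 fell, in proliferating cells 5 rose and none fell. ND2, a subunit of respiratory complex I, read 2406 and 2584 CPM in proliferating cells, 4245 and 3829.7 CPM after doxycycline, 3861 and 3237 CPM in senescent cells and 2207 and 1815 CPM with doxycycline. The treated proliferating and untreated senescent libraries were high, the other 4 low (log2 difference -1.51, SE 0.16, adjusted p = 1.94e-05). COX1, the catalytic subunit of cytochrome oxidase, changed by 0.13 and -1.18 (log2 difference -1.32, SE 0.14, adjusted p = 1.22e-05). As shares of all counts, the mitochondrial genes held 5.59 and 5.94% in proliferating cells, 7.05 and 6.88% with doxycycline, 6.55 and 5.97% in senescent cells, and 3.82 and 3.31% with doxycycline. Of 12 tested genes of the RefSeq type tRNA, which include the mitochondrial TRNP and TRNY, 10 were called, all lower. Nuclear copies of mitochondrial sequence exist, and how the counting treated reads that match both is not given.

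**Figure D5:**
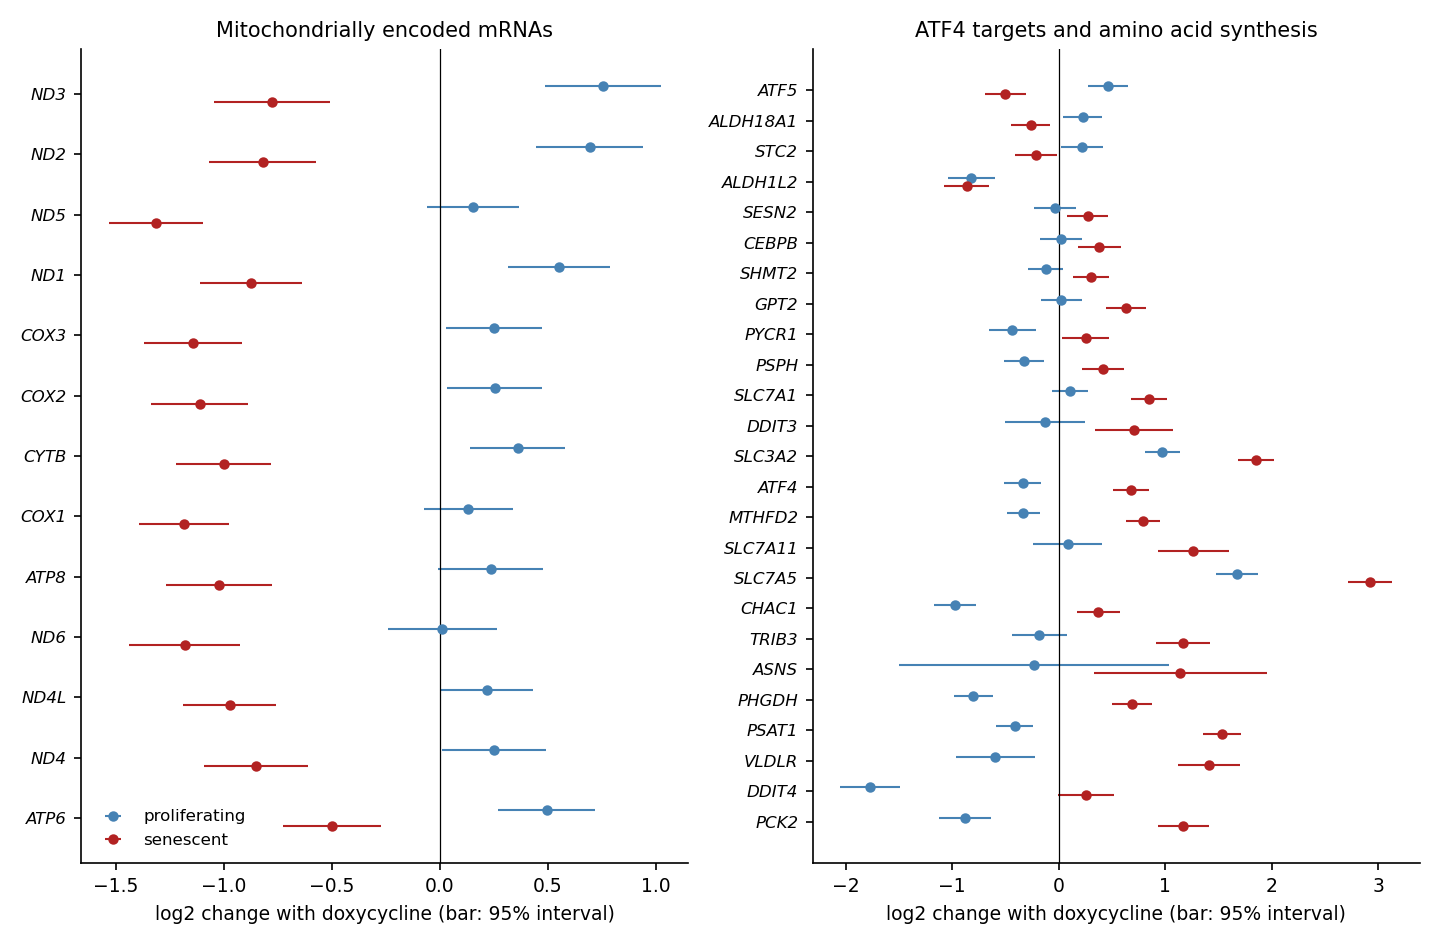
Log2 change with doxycycline and 95% interval in proliferating and senescent cells for the 13 mitochondrially encoded mRNAs and the 25 ATF4 targets and amino acid genes. Mitochondrial mRNAs all lie below 0 in senescent cells and at or above 0 in proliferating cells, while 19 of 25 ATF4 targets rose in senescent cells.

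Few nuclear genes of the same organelle had a called difference. Nuclear respiratory chain genes had 3 higher and 0 lower of 35 tested (8.57%), with medians of 0.15 in proliferating cells, 0.11 in senescent cells and 0.08 for the difference. The 3 were COX7C (log2 difference 0.75, SE 0.14, adjusted p = 0.00132), NDUFA2 (log2 difference 0.67, SE 0.15, adjusted p = 0.00497) and COX5A (log2 difference 0.57, SE 0.14, adjusted p = 0.00807), subunits of complexes IV and I. Without replicate 1 of proliferating cells with doxycycline 12 were higher, without replicate 2 of that group 3 were lower, and with total-count scaling 9 were higher. Mitochondrial ribosomal protein genes had 1 called difference of 35 (2.86%), MRPS22 at -0.40, which was lost with most libraries left out, at adjusted p values up to 0.131. Without replicate 2 of proliferating cells with doxycycline or senescent replicate 2 the count was 3.

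Cytosolic ribosomal protein genes were higher in the difference, 25 of 50 and none lower, with medians of 0.13 in proliferating cells, 0.50 in senescent cells and 0.42 for the difference. RPS12, of the small subunit, read 513 and 497 CPM in proliferating cells, 636 and 488 CPM after doxycycline, 204 and 217 CPM in senescent cells and 462 and 473 CPM with doxycycline. Untreated senescent libraries were low, and the other 6 lay clearly higher (log2 difference 0.99, SE 0.15, adjusted p = 3.10e-04). Over all ribosomal protein genes the share of counts was 2.78 and 2.61% there, against 4.29 to 5.11% in the other libraries, among which replicate 1 of proliferating cells with doxycycline was the highest. The count was 11 without proliferating replicate 1, 15 without proliferating replicate 2 or senescent replicate 2, 14 without replicate 2 of senescent cells with doxycycline, and 38 with total-count scaling. Ribosome biogenesis genes leaned the other way, with 1 higher and 9 lower of 30 tested (33.3%) and medians of 0.32 in proliferating cells, 0.17 in senescent cells and -0.17 for the difference. NCL, the nucleolar protein nucleolin, read 616 and 607 CPM without and 673 and 703 CPM with doxycycline in proliferating cells, against 608 and 546 CPM without and 423 and 396 CPM with it in senescent cells (log2 difference -0.67, SE 0.12, adjusted p = 0.00135). The 1 higher was FBL, a methylase of ribosomal RNA (log2 difference 0.44, SE 0.13, adjusted p = 0.0294), which kept its call in 1 of the 8 fits that leave out a library, the one without replicate 1 of proliferating cells with doxycycline. With total-count scaling the median difference was 0.01 and 4 were lower, as without proliferating replicate 2, and 5 were lower without proliferating replicate 1.

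Lysosomal genes were lower in the difference, with 0 higher and 19 lower of 35 tested (54.3%) and medians of -0.01 in proliferating cells, -0.34 in senescent cells and -0.39 for the difference. CTSS, cathepsin S, fell in both states, with log2 changes of -0.93 and -2.46 (log2 difference -1.54, SE 0.31, adjusted p = 0.00278). FUCA1, which removes fucose, rose in both by 4.23 and 1.90 from 0.171 and 0.20 CPM in proliferating cells (log2 difference -2.33, SE 0.29, adjusted p = 5.82e-05). Cholesterol genes had 2 higher and 6 lower of 23 tested (34.8%). IDI1, an isomerase of the pathway, moved in opposite directions by 0.33 and -0.44 (log2 difference -0.78, SE 0.11, adjusted p = 2.28e-04). PMVK, a kinase of the pathway, fell in senescent cells only (log2 difference -0.93, SE 0.15, adjusted p = 4.77e-04). The 6 lower became 3 without proliferating replicate 1, and the 2 higher became 1 without that library, none without proliferating replicate 2 and 5 with total-count scaling. Hypoxia-response and glycolysis genes leaned higher, with 13 higher and 1 lower of 30 tested (46.7%) and medians of -0.15 in proliferating cells, 0.08 in senescent cells and 0.26 for the difference. ADM, the vasodilator adrenomedullin (chromosome 11, 10305073 to 10307397), read 455 and 447 CPM in proliferating cells, 320.4 and 295 CPM after doxycycline, 379.6 and 329 CPM in senescent cells and 569.7 and 539 CPM with doxycycline. It fell in proliferating and rose in senescent cells (log2 difference 1.20, SE 0.13, adjusted p = 1.41e-05). SLC2A1, the glucose transporter GLUT1, did so too, by -0.25 and 0.41 (log2 difference 0.66, SE 0.12, adjusted p = 0.00154). HK1 was the 1 lower gene (log2 difference -0.47, SE 0.11, adjusted p = 0.00761), and that count was 0 with total-count scaling, without proliferating replicate 2 or replicate 1 of senescent cells with doxycycline and 2 without replicate 2 of proliferating cells with doxycycline.

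Of 36 collagens and matrix proteins 20 fell and 8 rose in proliferating cells, and 24 fell and 7 rose in senescent cells. The difference was 4 higher and 17 lower of 36 tested (58.3%), with medians of -0.50 in proliferating cells, -0.91 in senescent cells and -0.65 for the difference. COL1A2, a chain of type I collagen, read 5033 and 4928 CPM in proliferating cells, 3247 and 3189 CPM after doxycycline, 6442 and 7023 CPM in senescent cells and 1889 and 2671 CPM with doxycycline. It was high in senescent and low in treated senescent cells (log2 difference -0.93, SE 0.18, adjusted p = 0.00251). LUM, the proteoglycan lumican, went up instead, 1.48-fold and 3.65-fold (log2 difference 1.31, SE 0.11, adjusted p = 1.51e-06). The higher members were 2 without proliferating replicate 1. Of 18 smooth-muscle genes 8 fell and 1 rose in proliferating cells, and 12 fell and 1 rose in senescent cells. Their difference was 1 higher and 10 lower of 18 tested (61.1%), with medians of -0.30 in proliferating cells, -0.68 in senescent cells and -0.48 for the difference. ACTA2, smooth-muscle actin, read 234 and 245 CPM in proliferating cells, 152 and 132 CPM after doxycycline, 617 and 615 CPM in senescent cells and 142 and 169 CPM with doxycycline (log2 difference -1.23, SE 0.14, adjusted p = 2.06e-05). It overlaps FAS in the annotation. CNN1, calponin, fell by 0.38 and 1.42 (log2 difference -1.04, SE 0.13, adjusted p = 5.21e-05), and SYNPO2 was the 1 member higher. Focal adhesion and actin genes had 1 higher and 4 lower of 20 tested, a share near the background, with 6 lower and 3 higher in proliferating cells and 10 lower and 6 higher in senescent cells. ITGB1, the integrin beta-1 chain, fell in both states, with log2 changes of -0.30 and -1.08 (log2 difference -0.78, SE 0.14, adjusted p = 0.00130), and TES, an adapter at adhesions, was the 1 higher (log2 difference 0.54, SE 0.12, adjusted p = 0.00478). The 4 lower became 1 without either proliferating library, senescent replicate 2 or replicate 1 of senescent cells with doxycycline, and 7 without replicate 1 of proliferating cells with doxycycline. The 1 higher became 2 without any of 3 libraries with doxycycline, all but replicate 2 of senescent cells.

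Signalling genes downstream of growth factors were mixed. ERK feedback genes had 3 higher and 9 lower of 19 tested (63.2%), with medians of 0.12 in proliferating cells, -0.26 in senescent cells and -0.17 for the difference (0.01 for the difference with total-count scaling). The phosphatase genes DUSP5 and DUSP6, both acting on ERK, split: DUSP5 read 50.7 and 50.9 CPM in proliferating cells, 164 and 139.7 CPM after doxycycline, 80.3 and 73.8 CPM in senescent cells and 411 and 398 CPM with doxycycline. It rose in both states and more in senescent cells (log2 difference 0.82, SE 0.12, adjusted p = 3.15e-04). DUSP6 fell in both states, with log2 changes of -0.34 and -1.24 (log2 difference -0.90, SE 0.14, adjusted p = 3.15e-04). The 9 lower became 5 without proliferating replicate 1 or replicate 2 of senescent cells with doxycycline, 4 without proliferating replicate 2, and 5 with total-count scaling. AP-1 and immediate-early genes had 3 called differences of 19 (15.8%, under the background share), FOSL2 (log2 difference 0.41, SE 0.10, adjusted p = 0.0121), ATF3 (log2 difference 0.63, SE 0.19, adjusted p = 0.0256) and FOSL1 (log2 difference -0.58, SE 0.14, adjusted p = 0.00936). None of these calls held with every library left out in turn. FOSL1 was lost without replicate 1 of senescent cells with doxycycline (adjusted p = 0.0738), FOSL2 without either proliferating library (0.115 and 0.0530), and ATF3 without 7 of the 8 libraries.

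Markers of cell types other than fibroblasts were checked for the same differences. Of 15 epithelial markers 9 were tested, with 2 differences higher, KRT18 and KRT8, and 1 lower, EHF, and summed levels of 209 and 209 CPM in proliferating cells, 488 and 480.4 CPM after doxycycline, 215 and 208 CPM in senescent cells and 645 and 593 CPM with doxycycline. KRT18 (1.29 and 2.49, log2 difference 1.20, SE 0.11, adjusted p = 3.88e-06) and KRT8 (0.93 and 1.74, log2 difference 0.80, SE 0.12, adjusted p = 3.72e-04) are keratins that overlap in the annotation, and together they made up most of that sum. EHF, an epithelial transcription factor, read 0.488 and 0.351 CPM in proliferating cells, 0.353 and 0.340 CPM after doxycycline, 86.1 and 86.9 CPM in senescent cells and 10.1 and 9.68 CPM with doxycycline (log2 difference -2.85, SE 0.33, adjusted p = 3.29e-05). Of 10 endothelial markers 4 were tested and 1 was called, TIE1 (log2 difference -1.59, SE 0.35, adjusted p = 0.00460), with summed levels of 70.8 and 72.1 CPM in proliferating cells, 49.6 and 54.1 CPM after doxycycline, 137 and 157 CPM in senescent cells and 98.9 and 109 CPM with doxycycline. Of 12 leukocyte markers 4 were tested and 1 was called, CD68, also a lysosomal protein (log2 difference -0.80, SE 0.16, adjusted p = 0.00414), with 72.6 and 69.5 CPM in proliferating cells, 61.3 and 64.6 CPM after doxycycline, 169 and 124 CPM in senescent cells and 71.7 and 71.3 CPM with doxycycline. Of 12 neuronal and glial markers 5 were tested and 2 were called higher, ENO2, which is also a glycolytic enzyme (log2 difference 0.51, SE 0.11, adjusted p = 0.00416), and MAP2, with 165 and 165 CPM in proliferating cells, 145 and 148 CPM after doxycycline, 244 and 229.5 CPM in senescent cells and 326 and 339.6 CPM with doxycycline. MAP2 lost its call without replicate 2 of proliferating cells with doxycycline (log2 difference 1.53, adjusted p = 0.0577). The part of these markers in the other differences was not tested. Of the 14 fibroblast markers, 4 differences were higher and 4 lower (57.1%). In proliferating cells 10 of these markers fell and 1 rose, in senescent cells 9 fell and 2 rose.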

How the data were processed

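The authors deposited 1 table of read counts, whole numbers for 54628 genes, with 1 column for each of the 8 libraries. Per the labels' protocols, total RNA was made into libraries with a stranded mRNA kit. Software and build come from the submitters' processing notes, which list featureCounts 1.6.3, HISAT2 2.1.0, Trimmomatic 0.36 and hg38. How these tools were set, whether strand was used in counting and which annotation served is not given in the sources used here. Overlapping genes and close copies therefore have uncertain counts, also where the text does not mark them. Examples are MCUB, which overlaps CASP6, DEPP1, which overlaps RASSF4, and ERAP2, which overlaps ERAP1.

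Groups and replicate numbers follow the sample titles. After filterByExpr on the 4 groups, 17155 genes received TMM factors and a robust quasi-likelihood fit in edgeR 4.0.16 (R 4.3.3), with 4 residual degrees of freedom, a common biological coefficient of variation of 0.0904 and median prior degrees of freedom of 11.2. The difference of the doxycycline effects and each single-state effect were tested two-sided, with Benjamini-Hochberg adjustment over these genes at 0.05. SEs are the absolute log2 change divided by the square root of the test's F statistic. The 95% intervals are built from these SEs, and CPM uses the TMM factors. The code was tested on simulated data. Library totals of 33627708 to 39692162 counts set the precision. Counts of replicate libraries gave a chi-square per degree of freedom above the 1 of counting error alone. It was 3.44 in proliferating cells, 17.8 with doxycycline, 14.4 in senescent cells and 11.5 with doxycycline. The untreated proliferating libraries were thus the most alike, while the fit used a single spread per gene for all 4 groups.

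The text names YAP1, the 10 genes with the largest difference in each opposite-direction class, 8 in each 1-state class and 6 in each same-direction class, whose mean log2 CPM reached 3, passing over clone names. Some genes that this choice picks are not reported here. Up to 4 members per list, and others where a list is described, were added. The members and the 33 lists with 790 genes were chosen with earlier results of these data known, and the amino acid motif after the lists had been seen. Promoter sequences are RefSeq's (GRCh38.p14), and transcript lengths and GC content are GENCODE's. Alternatives were DESeq2 1.42.0, limma-voom (limma 3.58.1), other scaling and filters, replicate number as a block, no robust estimation, a test against 1.5-fold (glmTreat), and each library left out. A group left with 1 library was assumed to vary like the others. DESeq2's missing adjusted p-values stayed missing.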

Additional observations from a re-analysis of the deposited data

Results flagged for a closer look

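The contrast that tests the difference of the doxycycline effects between senescent and proliferating cells passed for 1386 genes with a higher and 2021 genes with a lower effect in senescent cells, by edgeR's quasi-likelihood test with Benjamini-Hochberg adjustment. In 213 genes the effects had opposite signs, each passing on its own. Among the 19 named genes of that form, those that rose in proliferating and fell in senescent cells had log2 differences of -3.17 for WTAPP1, -3.10 for SERPINB2, -2.73 for H2BC4, -2.67 for IFIT1 and -2.56 for MMP1. Those of the same kind with smaller differences were CCL2 at -2.24, H2BC21 at -1.93, RGS4 at -1.91, SFRP1 at -1.87 and IFI30 at -1.83.

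Genes that fell in proliferating and rose in senescent cells had log2 differences of 2.05 for PCK2, 1.95 for PSAT1, 1.78 for H1-10, 1.71 for LRRC1 and 1.49 for DCN. The others were PHGDH at 1.49, ERRFI1 at 1.42, CHAC1 at 1.35 and MCUB at 1.21. In each of the 19 genes both libraries with doxycycline lay on 1 side of both without it in proliferating cells, and on the other side in senescent cells. As the genes were chosen by their effects in these same libraries, this separation adds no separate evidence.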

How the results depend on the processing

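Over the genes followed, those named by rule and the list members described, no called difference changed sign in any alternative. CXCL8, not called, did so in 3. Of their values 3325 stayed on their side of the threshold, 239 lost the call and 15, of YAP1, IL6, AMOTL2 and CCN1, gained it. Of the 3407 called differences, 3305 were called again with DESeq2's size factors in edgeR, 90.8% with limma-voom, 82.5% with DESeq2 and 73.2% with total counts alone. With total counts alone the difference was higher for 2638 and lower for 1107 genes, and the senescent effect lower for 2498. The opposite classes then held 73 (higher in proliferating cells) and 162 genes, the proliferating-only classes 137 higher and 241 lower, and the senescent-only classes 1773 and 553. The classes raised more, lowered more and lowered less in senescent cells held 319, 205 and 20. Scaling factors were below 1 only in the senescent libraries without doxycycline (0.902 and 0.929). Tested against a 1.5-fold change, the difference passed for 187 higher and 330 lower genes, the proliferating effect for 534 and 155, and the senescent effect for 1175 and 984. Classes then held 2 and 0 (opposite), 51 and 14 (proliferating only), 143 and 199 (senescent only), 8 and 37 (raised more and less), 5 and 0 (lowered more and less) and 58 genes (neither). The 2 were IFIT1 and IFI30, the 5 LIF-AS2, C1S, TNFRSF11B, LRRN3 and COL6A3.

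Whether the title's replicate number marks a pairing is not known. Deviations of same-numbered libraries from different groups correlated at -0.0121 to 0.159, a range that does not settle it. With the title's number as a replicate block 3871 differences passed, and 99.3% of those called without it. The description numbers a library 2 in 1 group only, so that block sets this library aside. With it as a replicate block the proliferating effect passed for 1344 higher and 1009 lower genes. The opposite classes then held 74 and 49, the proliferating-only classes 155 and 76, and the classes raised more and lowered more in senescent cells 101 and 191.

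Leaving out 1 library gave 704 to 1563 higher and 1148 to 2340 lower differences, both lowest without proliferating replicate 2, where 53.4% of the calls were made again. The proliferating effect passed for 1171 to 2320 higher and 840 to 1863 lower genes, the senescent effect for 2851 to 4138 and 2867 to 4461. Opposite classes held 44 to 152 and 32 to 96 genes, both lowest without proliferating replicate 1. Proliferating-only classes held 109 to 284 and 48 to 153, senescent-only classes 524 to 1084 and 632 to 1456. Classes raised more and less in senescent cells held 62 to 207 and 78 to 150, those lowered more and less 132 to 322 and 5 to 20, and the remaining class 40 to 140. Each group has 2 libraries only, which limits the power for genes at low counts.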

Other observations

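Long noncoding RNA genes and pseudogenes had called differences at a lower rate than protein-coding genes. By the RefSeq gene type, 2891 of 12878 protein-coding genes were called (22.4%), 1120 higher and 1771 lower. Among long noncoding RNA genes 11.8% of 2115 were called, 136 higher and 113 lower, and among pseudogenes 121 of 989 (12.2%), 70 higher and 51 lower. Long noncoding RNA and pseudogene reads cannot always be told apart from those of overlapping genes or parent copies.

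Genes with longer transcripts had slightly lower differences. Length was that of the gene's longest GENCODE transcript. Of 5 nearly equal sets of the genes with such a length, ordered by it, the shortest had a median difference of 0.04, with 263 called higher and 255 lower. In the longest set it was -0.09, with 219 higher and 452 lower. Across these 15440 genes Spearman's rho of the difference was -0.0823 with transcript length and -0.00696 with GC content, as a description over genes that are not independent.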
